A study of Mus musculus with 9 samples.

Results

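The lysyl oxidase family of the mouse comprises Lox, Loxl1, Loxl2, Loxl3 and Loxl4. These 5 genes were taken by symbol from a table of 35321 genes measured by RNA sequencing in subcutaneous tumours of Lewis lung carcinoma (LLC), a mouse lung cancer cell line, and all 5 passed the filter on low values that 13687 genes passed. The mice were male C57BL/6 animals, 4 to 5 weeks old, and carried the tumour on the right side. From day 5 after the cells were injected they received PBS (vehicle) or digoxin by the intraperitoneal route, either 0.1 mg/kg, called the low dose here, or 1 mg/kg, the high dose, and each group has 3 tumour samples. Digoxin, a cardiac glycoside, blocks the sodium-potassium ATPase, whose alpha 1 subunit is known to bind it weakly in rodents. The labels do not say how often the mice were treated, when the tumours were taken or whether each sample came from a separate mouse, so p-values here rest on the spread among 3 samples a group, and that spread may be technical. The whole tumour was sequenced, so host cells of the mouse contribute to each value, and fewer cells of a type cannot be told apart from less RNA per cell.

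Lysyl oxidases are secreted, copper-dependent amine oxidases. They oxidise lysine side chains of collagen and elastin to aldehydes, which then condense into the covalent cross-links that stiffen and stabilise the extracellular matrix. Lox and Loxl1 are made with a propeptide that Bmp1-type proteases remove, and Loxl1 is best known for its part in elastic fibre maintenance. Loxl2, Loxl3 and Loxl4 carry scavenger receptor cysteine-rich domains before the catalytic domain. In tumours the family is studied for collagen cross-linking and metastasis, and Lox, Loxl2 and Loxl4 are known as hypoxia-inducible genes.

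The catalytic domain holds a copper-binding stretch with 4 histidines, which is shown because it is the chemistry the members share. The coding sequence of this stretch is 33 nt long in each member and spans 2 exons in each of the 4 members shown. The sequences below are from the GENCODE M21 transcripts of build GRCm38, 5′ to 3′ on the coding strand, with the histidine codons in capitals.
Loxl1: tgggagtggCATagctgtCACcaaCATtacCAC
Loxl2: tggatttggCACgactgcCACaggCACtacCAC
Loxl3: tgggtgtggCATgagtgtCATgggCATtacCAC
Loxl4: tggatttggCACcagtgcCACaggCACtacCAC
The Loxl1 stretch lies at chr9:58293720-58294381 on the minus strand in exons 3 and 4 of 7. That of Loxl2 lies at chr14:69682316-69689037 on the plus strand in exons 10 and 11 of 14. For Loxl3 it is at chr6:83049995-83050125 on the plus strand, also in exons 10 and 11 of 14. Loxl4 has it at chr19:42598807-42599899 on the minus strand, again in exons 10 and 11 of 14. Each span includes the intron between the exons. Loxl2 and Loxl4 were identical at 31 of the 33 bases, and Lox and Loxl1 at 32 of 33. Loxl3 was identical to Loxl1, to Loxl2 and to Loxl4 at 25 of 33 each, and to Lox at 24 of 33. This short stretch therefore does not place Loxl3 nearer to Loxl2 and Loxl4 than to Loxl1.

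Over the whole coding sequence, Loxl2, Loxl3 and Loxl4 were 60.5% to 62.2% identical to each other, while all pairs that include Lox or Loxl1 were 37.0% to 49.0% identical. Identity here is the share of matching bases over the whole alignment with gaps counted, so pairs of unlike length score lower. The longest run of bases shared by transcripts of any pair of members was 32 nt, between Lox and Loxl1, against reads of 150 bp. Lox has a coding length of 1233 nt and Loxl1 of 1821 nt, and the other three have 2328 nt (Loxl2), 2262 nt (Loxl3) and 2271 nt (Loxl4). Exons of Loxl3 overlap those of Htra2, a mitochondrial protease gene on the opposite strand, over 535 nt. Htra2 itself lay between 22.9 and 31.2 FPKM in the 9 libraries. The sources used here do not say whether counting used strand, so reads in that overlap cannot be assigned to 1 of the genes.

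Values are FPKM, reads scaled for library depth and gene length, which allow levels of different genes to be set side by side. Fold changes were tested on log2(FPKM + 1), on which changes of low genes look smaller than they are, with limma and Benjamini-Hochberg adjustment over 13687 genes. At the low dose 4 of the 5 members passed an adjusted p of 0.05: Loxl1 and Loxl3 rose, and Loxl2 and Loxl4 fell. The same 4 members passed in the same directions at the high dose. Of all tested genes, 42.2% passed at the low dose (21.6% higher and 20.7% lower) and 45.9% at the high dose (20.7% higher and 25.2% lower). A called member was therefore not unusual in these data. Between the doses 0 of 5 members passed with limma (0 at an unadjusted p under 0.05, and 0 with limma-voom), and 0.0146% of tested genes, 2 in number, did.

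The libraries differed in ways that touch these results. Depths recovered from the FPKM values were 48649867 to 51810956 reads with vehicle, 42870997 to 43319883 at the low dose and 40517062 to 42252370 at the high dose. On the first principal component, which held 69.4% of the variance, the vehicle libraries lay between −55.0 and −47.6 and 4 digoxin libraries between 35.7 and 37.9. The low-dose sample 2 lay at −0.60 and the high-dose sample 1 at 9.12, between the groups. Without these 2 libraries 5 members passed at the low dose and 4 at the high dose, while 61.5% and 61.3% of all tested genes passed. These libraries were chosen after seeing the data because they lay between the groups, so leaving them out favours differences from vehicle by the choice itself. Every count and every adjusted p below that leaves out these libraries is to be read with that limit and against those shares. The split of all calls moved with scaling: 2952 genes were higher and 2829 lower at the low dose as deposited, 2403 and 3552 after quantile normalisation, and 2368 and 3790 after rescaling to TPM, which moved the median log2 fold change by −0.11. The 5 members kept their direction against vehicle under both scalings.

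**Figure D1:**
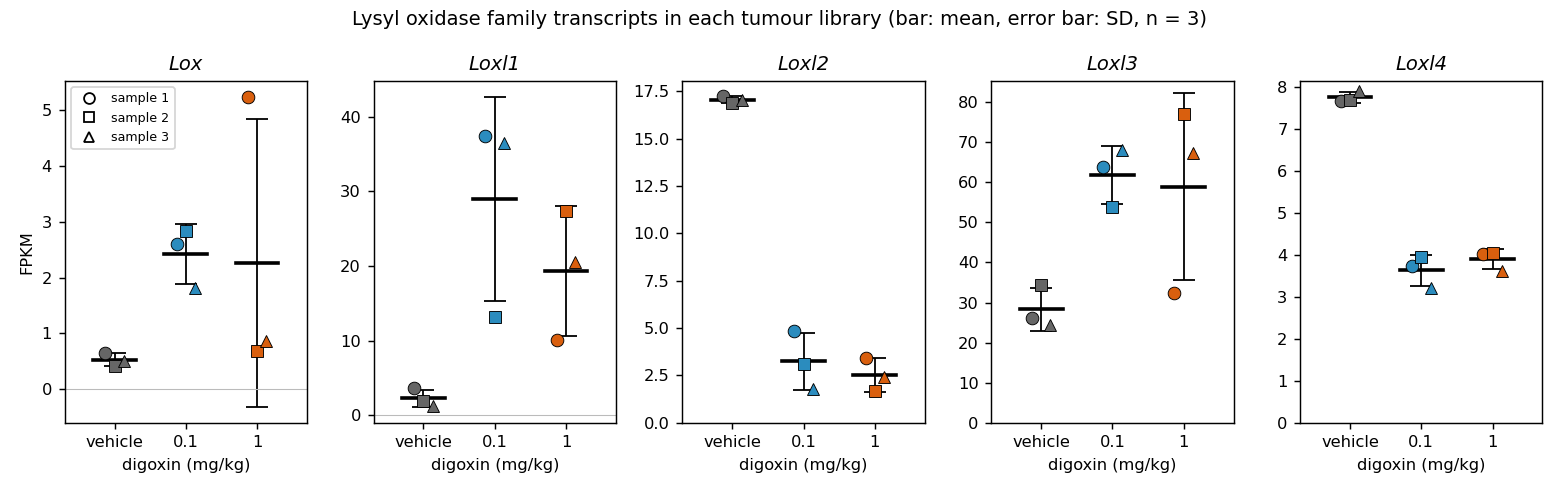
FPKM (linear axes, 1 panel per gene) of the 5 lysyl oxidase genes in each of the 9 tumour samples by digoxin dose; points are samples, horizontal bars group means and error bars the SD of 3 samples. Loxl2 and Loxl4 are lower in all 6 digoxin samples than in the 3 vehicle samples, Loxl1 and Lox are higher, and 1 Loxl3 sample at the high dose (32.5 FPKM) falls within the vehicle range.

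Lox, the founding member, which cross-links collagen and elastin, was the least abundant of the 5 with vehicle. Its values were 0.658, 0.427 and 0.509 FPKM in vehicle samples 1 to 3, from 102 to 153 reads each. They were 2.60, 2.84 and 1.82 FPKM at the low dose and 5.24, 0.681 and 0.863 FPKM at the high dose. Neither digoxin group overlapped the vehicle group, but high-dose samples 2 and 3 lay close above it and sample 1 stood far above the other two. The group means were 0.531 ± 0.117 with vehicle, 2.42 ± 0.532 at the low dose and 2.26 ± 2.58 at the high dose (SD, n = 3). The log2 fold change against vehicle was 1.15 (SE 0.43) at the low dose and 0.82 (SE 0.43) at the high dose, with limma adjusted p of 0.0600 and 0.152. Neither passed.

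The Lox value at the low dose lay near the threshold, and several other settings placed it past it. The fit shares the spread of all 3 groups, so the SE at the low dose also holds the spread among high-dose samples. On log2(FPKM + 1) the SD of Lox was 0.11 with vehicle, 0.23 at the low dose and 1.05 at the high dose. With a pseudocount of 0.1 the log2 fold change was 1.99 (limma adjusted p = 0.0348). Without high-dose sample 1, which lies farthest from its own group, the adjusted p was 0.000895, and without high-dose sample 2 it was 0.0465. Over the 21 alternatives the adjusted p ranged from 0.000525 to 0.154. At the high dose Lox passed under none of its alternatives, and the log2 fold change fell to 0.21 without sample 1. That sample also had the highest summed FPKM of 16 hypoxia pathway genes, 2404 against 1200 and 1343 in samples 2 and 3 of its group. These sums were 1164 to 1263 with vehicle and 704 to 1017 at the low dose, where each Lox value lay above vehicle. The part of these genes in the Lox values was not tested.

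Loxl1, the member tied to elastic fibres, showed the largest log2 fold changes of the 5. The vehicle samples had 3.59, 1.89 and 1.31 FPKM. At the low dose the values were 37.3, 13.2 and 36.4 FPKM, and at the high dose 10.1, 27.4 and 20.5 FPKM. The groups did not overlap with vehicle, and the lowest digoxin values were those of the 2 libraries that lay between the groups on the first component. Means were 2.26 ± 1.19, 29.0 ± 13.7 and 19.3 ± 8.71 FPKM (SD, n = 3), which is 12.8 times the vehicle mean at the low dose and 8.54 times at the high dose. The log2 fold changes were 3.13 (SE 0.47, limma adjusted p = 0.00203) and 2.60 (SE 0.47, adjusted p = 0.00333). Among tested genes the Loxl1 mean moved from the 23.4 percentile with vehicle to 85.2 and 77.4 with digoxin.

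Loxl2, which is known for cross-linking of collagen IV and fibrillar collagens and for binding Snai1, fell the most. The vehicle samples were tightly placed at 17.3, 16.9 and 17.0 FPKM. With the low dose the values were 4.82, 3.11 and 1.79 FPKM, and with the high dose 3.44, 1.66 and 2.44 FPKM. Neither digoxin group overlapped vehicle, and the highest digoxin value, 4.82 FPKM, lay far below the lowest vehicle value, 16.9 FPKM. The means were 17.1 ± 0.184, 3.24 ± 1.52 and 2.51 ± 0.893 FPKM (SD, n = 3), so that the vehicle mean was 5.27 times the low-dose mean and 6.79 times the high-dose mean. Log2 fold changes were −2.15 (SE 0.26, limma adjusted p = 0.000939) and −2.39 (SE 0.26, adjusted p = 0.000556). An antisense gene that overlaps Loxl2 exons over 301 nt, Gm27177, was at 0.0429 FPKM or less in each library.

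Loxl3, which acts on collagen and fibronectin matrices and is needed for palate and spine development, was the most abundant member in each library. Vehicle samples had 26.3, 34.3 and 24.3 FPKM. The low-dose samples had 63.7, 53.9 and 68.0 FPKM, all above vehicle, and the high-dose samples 32.5, 77.0 and 67.2 FPKM. At the high dose the group overlapped vehicle through sample 1. The means were 28.3 ± 5.31, 61.9 ± 7.25 and 58.9 ± 23.4 FPKM (SD, n = 3), with log2 fold changes of 1.11 (SE 0.29, limma adjusted p = 0.0160) and 0.96 (SE 0.29, adjusted p = 0.0255).

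The Loxl3 calls were the least stable of the 4. At the low dose the call was lost without vehicle sample 1 (limma adjusted p = 0.0506), vehicle sample 3 (0.0601), low-dose sample 1 (0.0502) or low-dose sample 3 (0.0578). At the high dose it was lost without vehicle sample 1 (0.0724), vehicle sample 3 (0.0854), high-dose sample 2 (0.0819) or high-dose sample 3 (0.0850), and with no filter on low values (0.0678). With both of the in-between libraries left out, the adjusted p was 0.000272 and 0.000170.

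Loxl4, a matrix-directed member with the copper-binding stretch closest to that of Loxl2, fell with little spread. Its vehicle values were 7.66, 7.69 and 7.91 FPKM. At the low dose they were 3.74, 3.94 and 3.22 FPKM, and at the high dose 4.03, 4.04 and 3.63 FPKM. No digoxin sample came near the vehicle range, and the 2 libraries that lay between the groups on the first component, at 3.94 and 4.03 FPKM, were close to the other digoxin samples. Means were 7.75 ± 0.136, 3.64 ± 0.372 and 3.90 ± 0.236 FPKM (SD, n = 3), and the log2 fold changes −0.92 (SE 0.09, limma adjusted p = 0.000393) and −0.84 (SE 0.09, adjusted p = 0.000468). The vehicle mean was 2.13 times the low-dose mean and 1.99 times the high-dose mean.

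**Figure D2:**
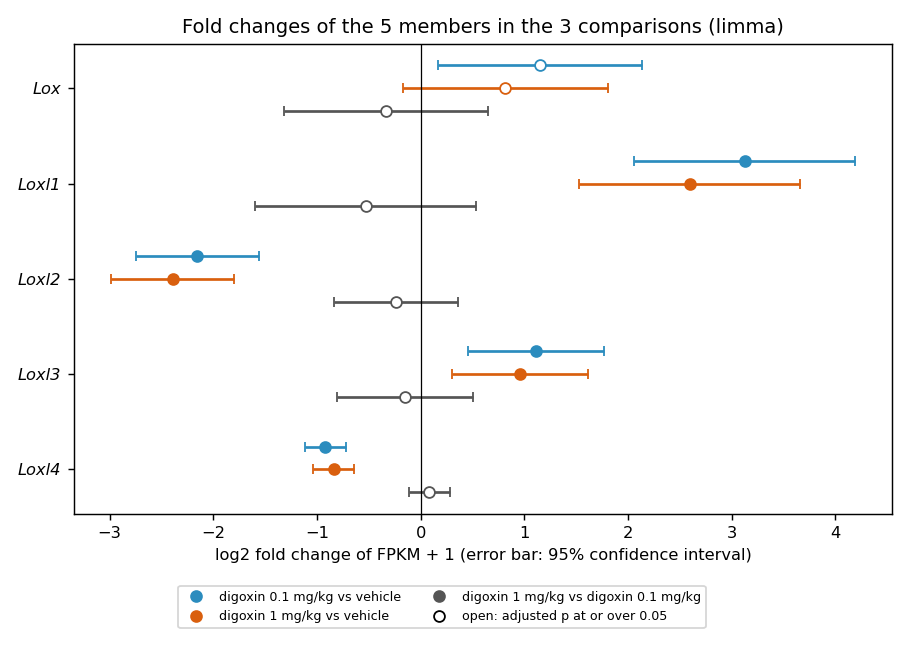
Log2 fold change of FPKM + 1 for each lysyl oxidase gene in the 3 comparisons, with 95% confidence intervals from the limma fit; filled symbols have an adjusted p under 0.05. Loxl1 and Loxl3 lie above 0 and Loxl2 and Loxl4 below 0 at both doses, and all 5 intervals of the high against the low dose include 0.

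All 5 members had digoxin values outside the vehicle range at the low dose, where 60.2% of tested genes did not overlap with vehicle (32.3% higher and 27.9% lower). At the high dose 4 of 5 did not overlap, against 58.3% of tested genes (25.2% higher and 33.1% lower). Both dose groups were compared with the same 3 vehicle samples, so the 2 comparisons are not independent.

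The direct comparison of the doses asked whether the higher dose moved the family further. The log2 fold change of the high against the low dose was −0.53 for Loxl1 (95% interval −1.60 to 0.54) and −0.24 for Loxl2 (−0.83 to 0.36). It was −0.15 for Loxl3 (−0.81 to 0.50), 0.08 for Loxl4 (−0.11 to 0.28) and −0.33 for Lox (−1.32 to 0.65). The limma adjusted p ranged from 0.689 to 0.869 over the 5, and the 2 dose groups overlapped for each member, while 17.0% of tested genes did not overlap (6.05% higher and 11% lower). The interval of Loxl4 excludes a difference as large as its change from vehicle, whereas that of Lox leaves room for one. With both of the in-between libraries left out, Lox was lower at the high dose than at the low dose by a log2 fold change of −0.85 (adjusted p = 0.0336), and the other four did not pass. The high-dose library left out, sample 1, had the highest Lox value of its group, 5.24 FPKM against 0.681 and 0.863. The Lox result therefore depends on a choice made after seeing the data.

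**Figure D3:**
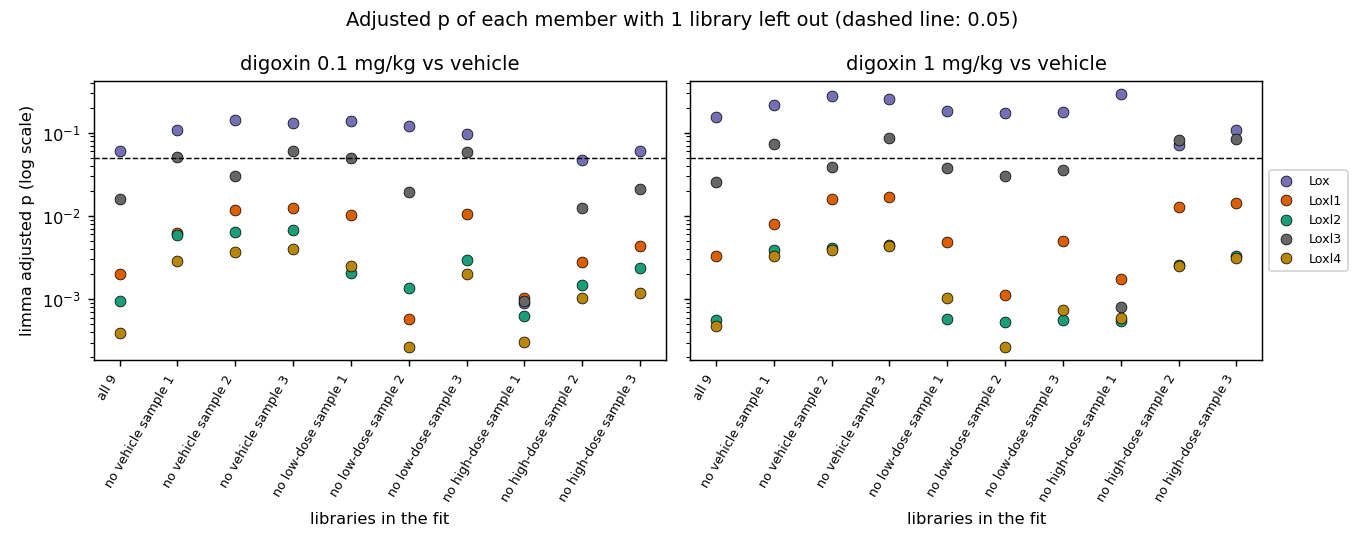
Limma adjusted p (log axis) of each lysyl oxidase gene against vehicle with all 9 libraries and with 1 library left out in turn, 1 panel per dose; the dashed line is 0.05. Loxl1, Loxl2 and Loxl4 stay under the line throughout, Loxl3 rises above it in 4 of the 9 fits at each dose, and Lox is above it at the high dose in each fit.

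The make-up of the family changed with these shifts. The summed FPKM of the 5 genes was 51.0 to 61.2 with vehicle, 77.0 to 112 at the low dose and 55.3 to 111 at the high dose. Loxl2 made up 27.6% to 33.4% of the sum with vehicle, 1.61% to 4.30% at the low dose and 1.50% to 6.23% at the high dose. Loxl1 went the other way, from 2.57% to 6.48% of the sum with vehicle to 17.1% to 33.3% and 18.2% to 24.7% with digoxin. Loxl2 exceeded Loxl1 by 4.8 to 13 times in the vehicle samples, and Loxl1 exceeded Loxl2 by 4.25 to 20.4 times at the low dose and by 2.92 to 16.5 times at the high dose. Loxl3 held the largest share throughout, 47.4% to 56.1% with vehicle, 56.8% to 70.0% at the low dose and 58.8% to 71.0% at the high dose. Loxl4 held 12.6% to 15.5%, 2.90% to 5.12% and 3.65% to 7.29%.

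The order of levels with vehicle was Loxl3, Loxl2, Loxl4, Loxl1 and Lox, and no neighbours in that order overlapped. With digoxin Loxl1 stood below Loxl3 and above the others in each of the 6 libraries. At the low dose the ranges of Loxl4 and Loxl2 overlapped, as did those of Loxl2 and Lox. At the high dose Lox overlapped both Loxl4 and Loxl2, through sample 1, where Lox (5.24 FPKM) exceeded Loxl4 (4.03 FPKM) and Loxl2 (3.44 FPKM).

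**Figure D4:**
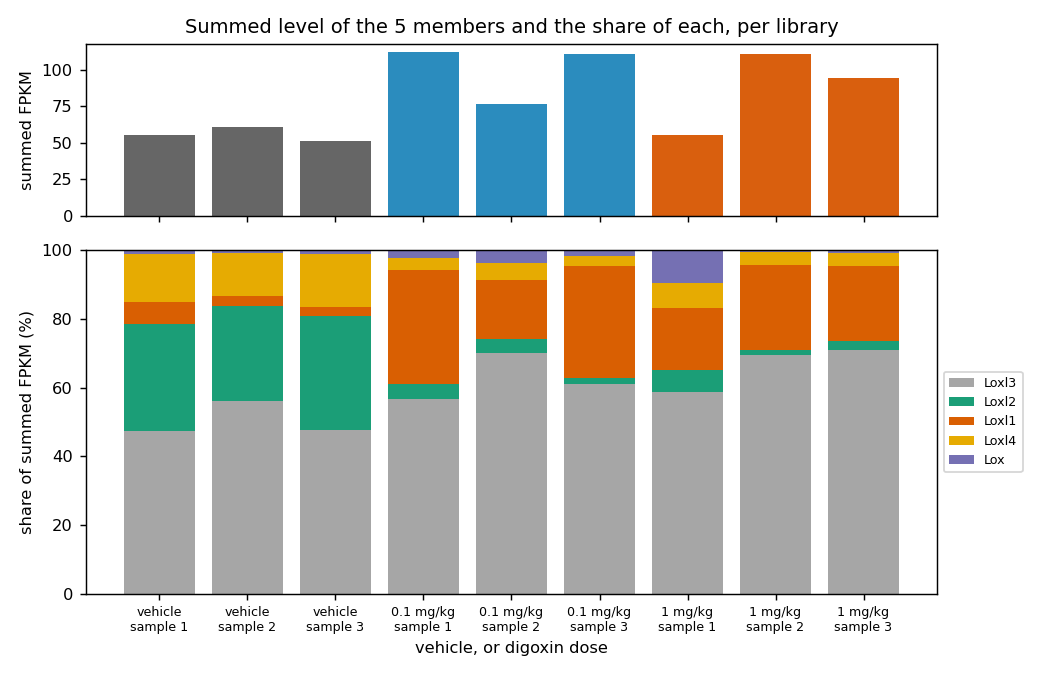
Summed FPKM of the 5 lysyl oxidase genes (upper panel) and the share of each gene in that sum in percent (lower panel), 1 bar per tumour sample. Loxl2 shrinks from 27.6% to 33.4% of the sum with vehicle to at most 6.23% with digoxin, and Loxl1 grows from at most 6.48% to at least 17.1%.

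The members differed from each other in profile as well as in direction. As a measure of likeness, the log2(FPKM + 1) profiles over the 9 samples were centred and the root mean square difference taken, as a description with no test. Loxl2 and Loxl4 were the closest pair at 0.73 and Loxl1 and Loxl2 the most distant at 2.53. Loxl3 lay nearer to Lox (0.84) and Loxl1 (0.97) than to Loxl2 (1.66), and it was about as near to Loxl4 (0.98) as to Loxl1. The profiles were not scaled, so this measure depends on the size of changes as well as on their direction. Loxl3 rose with Loxl1 while Loxl4 fell, and Loxl1 changed by far more than either.

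Among 11709 named genes the profile nearest to Loxl2 was that of Col5a2 at 0.27, the alpha 2 chain of collagen V, followed by Zhx2 and Ak5. Col5a2 fell from 14.4 ± 2.55 FPKM with vehicle to 3.01 ± 0.479 at the low dose and 2.68 ± 1.47 at the high dose (SD, n = 3). For Loxl1 the nearest were Tlx2 (0.31), a homeobox gene, Wfdc15a and Ifi213, an interferon-activated gene. Tlx2 had 0.145 ± 0.104 FPKM with vehicle and 9.23 ± 2.99 at the low dose. Nearest to Loxl3 were Nudt14, Atn1 and Parp3 (0.14 to 0.15), and to Loxl4 Gart, a purine synthesis enzyme, Rtkn and Septin9 (0.07 each).

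The promoter of Loxl4, the member whose entry was found in the table of promoters used here, is shown beside its fall in the 6 digoxin samples. The 250 bases before its start, from RefSeq on build GRCm38.p6, lie at chr19:42612807-42613056 and are printed 5′ to 3′ on the gene's minus strand. Capitals mark matches to 2 of 5 motifs searched on both strands, CAGAC, a Smad-binding element, and CCGCCC, the GC box, here as its reverse complement.
Loxl4 promoter: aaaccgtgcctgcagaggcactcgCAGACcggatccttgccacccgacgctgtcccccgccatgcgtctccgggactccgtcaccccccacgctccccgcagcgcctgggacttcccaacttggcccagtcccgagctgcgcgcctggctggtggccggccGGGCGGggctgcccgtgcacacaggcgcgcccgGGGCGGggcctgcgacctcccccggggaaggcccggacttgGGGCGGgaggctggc
The start is that of RefSeq, and the last 7 bases of the window lie in exons of Loxl4 in GENCODE M21. The window had a GC content of 76%. CAGAC occurred once, at −226, and is present in 42.2% of 32851 promoter windows of this length. CCGCCC occurred 3 times, at −89, −56 and −15, and is present in 32.7% of windows. The hypoxia response element core ACGTG (16.6% of windows), the E-box CAGGTG bound by Snai and Zeb factors (17.2%) and the AP-1 site TGANTCA (6.75%) had no match in these letters. A match is a description of the letters, not of binding.

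**Figure D5:**
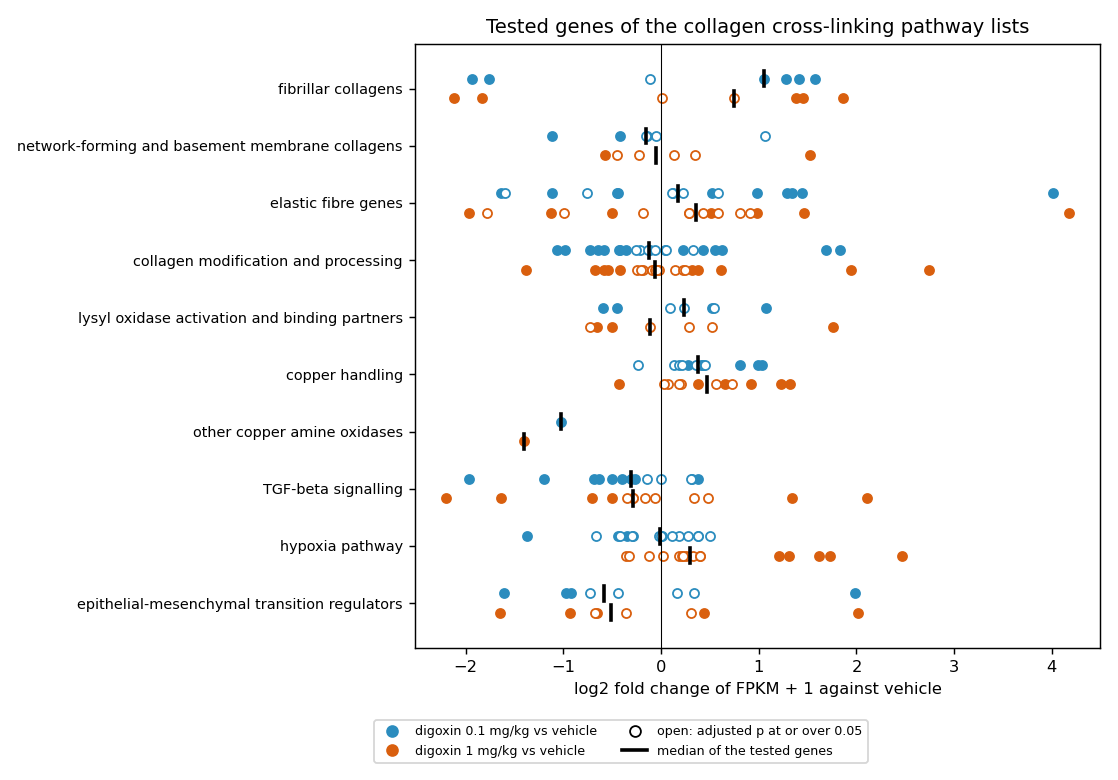
Log2 fold change of FPKM + 1 against vehicle for the tested genes of 10 lists around collagen and elastin cross-linking, with the doses in separate rows; filled points have an adjusted p under 0.05 and bars are list medians. Genes of the fibrillar collagen list lie on both sides of 0, and the elastic fibre gene Efemp1 lies farthest to the right, at 4.01 and 4.18.

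The substrates of the family moved in both directions. The median log2 fold change of all tested genes was 0.02 at the low dose and −0.04 at the high dose, against which the lists are given. Of 7 tested fibrillar collagen genes, 4 rose and 2 fell at the low dose (median 1.05), and 3 rose and 2 fell at the high dose (median 0.75). Col1a1, a chain of collagen I, rose from 40.1 ± 16.3 FPKM to 107 ± 33.9 and 142 ± 23.6 (log2 fold changes 1.41 and 1.86, limma adjusted p = 0.00913 and 0.00261). Col1a2, its partner chain, rose at the low dose (1.57, adjusted p = 0.00924) and had a log2 fold change of 0.75 at the high dose (adjusted p = 0.114). Col3a1, which forms collagen III, was the most abundant of the named collagens with vehicle and fell by log2 fold changes of −1.76 and −1.84 (adjusted p = 0.0151 and 0.0113). Its samples had 586, 684 and 644 FPKM with vehicle, 132, 384 and 130 at the low dose and 310, 141 and 128 at the high dose, with the higher digoxin values in the 2 libraries between the groups. Col5a1 had log2 fold changes of −0.11 and 0.01 (adjusted p = 0.359 and 0.939).

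Of 6 tested network-forming and basement membrane collagen genes, 2 fell at the low dose (Col18a1 and Col8a1, median −0.15). At the high dose Col4a5 rose and Col15a1 fell (median −0.05). Col4a1, the main collagen IV chain and a substrate of Loxl2, had log2 fold changes of −0.05 and 0.35 (limma adjusted p = 0.818 and 0.108). Without both libraries between the groups, 3 rose and 2 fell at the high dose.

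Of 16 tested elastic fibre genes, 6 rose and 4 fell at the low dose (median 0.18), and 4 rose and 3 fell at the high dose (median 0.36). Without the libraries between the groups the counts were 8 and 6 at the low dose and 6 and 5 at the high dose. Efemp1, which encodes fibulin-3, rose from 0.948 FPKM to 31.8 and 36.8 on average, with log2 fold changes of 4.01 and 4.18 (limma adjusted p = 0.000581 and 0.000448). Fbln1, fibulin-1, rose by 1.34 and 1.46. Ltbp4, which binds latent TGF-beta and fibulins, fell by log2 fold changes of −1.11 and −1.13. Eln, the elastin gene itself, had 4.49, 3.73 and 2.80 FPKM with vehicle, 0.383, 4.63 and 1.60 at the low dose and 3.17, 0.837 and 0.634 at the high dose. Its groups overlapped, and it did not pass (adjusted p = 0.25 and 0.14), but it was among the genes that fell without the libraries between the groups.

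Genes that modify or process collagen chains inside and outside the cell split as well. Of 22 tested, 6 rose and 8 fell at the low dose (median −0.13), and 5 rose and 5 fell at the high dose (median −0.06). P4ha2, a prolyl 4-hydroxylase subunit, rose by 1.83 and 2.75 in log2 fold change and P3h2, a prolyl 3-hydroxylase, by 1.69 and 1.94. Colgalt1, which glycosylates hydroxylysine, fell by log2 fold changes of −0.99 and −0.67. Plod2, the lysyl hydroxylase whose products feed one type of Lox cross-link, fell at the low dose (−0.72, limma adjusted p = 0.0431) and had a log2 fold change of −0.20 at the high dose (adjusted p = 0.523), where it passed without the libraries between the groups (−0.48, adjusted p = 0.00141).

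Of 7 tested genes for activation and binding partners of lysyl oxidases, 2 rose and 2 fell at the low dose (median 0.24), and 1 rose and 2 fell at the high dose (median −0.12). Fn1, fibronectin, fell from 345 FPKM on average to 228 and 218 (log2 fold changes −0.59 and −0.65, limma adjusted p = 0.00298 and 0.00170). Neither digoxin group overlapped vehicle for Fn1, as for 60.2% and 58.3% of all tested genes, and the 2 dose groups overlapped. Efemp2, fibulin-4, which brings Lox to elastin, fell by log2 fold changes of −0.45 and −0.50. Thbs1, thrombospondin-1, rose at the high dose (1.76, adjusted p = 0.0282), but did not pass without the libraries between the groups (1.45, adjusted p = 0.0733). Bmp1, the protease that removes the Lox propeptide, had 0.09 and −0.12 (adjusted p = 0.633 and 0.513). Postn, periostin, had 0.54 and −0.73 (adjusted p = 0.238 and 0.120), and fell at the high dose without those libraries (−1.18, adjusted p = 0.00239).

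Copper reaches lysyl oxidases in the secretory pathway through the pump Atp7a. Of 12 tested copper handling genes, 5 rose at the low dose (median 0.38), and 5 rose and 1, Commd1, fell at the high dose (median 0.47). Slc31a2, a copper transporter, rose by log2 fold changes of 0.99 and 0.92. The metallothionein Mt1 rose at the high dose, by 1.32 (limma adjusted p = 0.00479), and had a log2 fold change of 0.21 at the low dose (adjusted p = 0.527). Atp7a was below the filter, at 0.927 ± 0.146, 0.360 ± 0.177 and 0.566 ± 0.238 FPKM (SD, n = 3), and was not tested. Without the libraries between the groups 7 rose and 1 fell at the low dose and 8 rose and 1 fell at the high dose. Aoc2, the only tested gene of the other copper amine oxidases, fell at both doses, by log2 fold changes of −1.03 and −1.40.

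Upstream pathways were described by 3 lists. Of 13 tested TGF-beta signalling genes, 1 rose and 8 fell at the low dose (median −0.30), and 2 rose and 5 fell at the high dose (median −0.29). Smad3, a signal transducer, fell by log2 fold changes of −1.97 and −2.20 and Tgfb3, a ligand, by −1.20 and −1.64. The target gene Ccn2 was among those that rose, by 0.37 and 1.34. Tgfb1 had 0.32 and 0.34 (limma adjusted p = 0.147 and 0.124), and without the libraries between the groups it passed at 0.47 and 0.50 (adjusted p = 0.000715 and 0.000546). The list then had 2 that rose and 8 that fell at the low dose, and 3 and 7 at the high dose.

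Of 16 tested hypoxia pathway genes, 3 fell at the low dose (median −0.01) and 5 rose at the high dose (median 0.29). The 5 are the HIF-1 targets Adm, Bnip3, Ndrg1, Slc2a1 and Vegfa. Adm, which encodes adrenomedullin, had 12.5, 9.91 and 13.4 FPKM with vehicle, 17.9, 7.06 and 16.7 at the low dose and 130, 53.7 and 48.4 at the high dose. Sample 1 at the high dose, the library with the highest Lox, also had the highest Adm, Bnip3 (92.0 FPKM) and Ndrg1 (92.6 FPKM). Hif1a fell at the low dose (−0.44, limma adjusted p = 0.0285) and had −0.36 at the high dose (adjusted p = 0.0506, and 0.0124 without the libraries between the groups). Without the libraries between the groups, 3 rose and 7 fell at the low dose and 7 rose and 1 fell at the high dose.

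Of 8 tested regulators of epithelial-mesenchymal transition, 1 rose and 3 fell at the low dose (median −0.58), and 2 rose and 3 fell at the high dose (median −0.51). Snai1, the partner of Loxl2 and Loxl3, fell at the low dose (−0.92, limma adjusted p = 0.00596) and had −0.36 at the high dose (adjusted p = 0.139). Snai2 rose by log2 fold changes of 1.99 and 2.02, while Cdh2, N-cadherin, fell by −1.61 and −1.65 and Zeb1 by −0.97 and −0.93. Without the libraries between the groups, 3 rose and 5 fell at the low dose and 2 rose and 4 fell at the high dose. Of the 106 tested genes of the 10 lists, 0 passed between the doses with limma or with limma-voom, and 32 (30.2%) had an unadjusted p under 0.05, as did 13.6% of all tested genes. Without the libraries between the groups 9 of the 106 passed (Adm, Ankrd37, Ccn2, Col1a2, Ltbp1, P4ha1, Plod2, Postn and Snai1), where 3.40% of all tested genes did.

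Fibroblasts and other stromal cells make much of the matrix in tumours, so their markers are given beside the family. Of 10 tested fibroblast markers, 1 (Thy1) rose and 5 fell at the low dose, and 6 fell at the high dose. Their summed FPKM was 520 to 555 with vehicle, 130 to 381 at the low dose and 112 to 274 at the high dose, and no defining marker was at 0. The highest sums with digoxin were in the 2 libraries between the groups. Dcn, Lum and Dpt, at 141, 174 and 182 FPKM on average with vehicle, made up most of the vehicle sums. Pdpn went the other way on average, from 9.53 FPKM to 19.2 and 24.6. Pi16 did so as well, from 0.522 FPKM to 1.02 and 0.743, and neither of them passed. Dcn, decorin, fell from 141 ± 8.81 FPKM to 58.0 ± 26.7 and 37.2 ± 14.5 (SD, n = 3), in the same direction as Loxl2 and Loxl4 and opposite to Loxl1 and Loxl3. Their part in the changes of the family was not tested.

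Of the 6 tested pericyte and smooth muscle markers and the 10 tested endothelial markers, 0 passed at either dose with limma or limma-voom, and the endothelial sums overlapped between vehicle and digoxin. The pericyte and smooth muscle sums were 74.1 to 80.2 FPKM with vehicle, 52.1 to 73.9 at the low dose and 32.7 to 112 at the high dose. At an unadjusted p under 0.05, 2 of the pericyte and smooth muscle markers and 0 of the endothelial markers passed at the low dose, and 0 of either at the high dose. Without the libraries between the groups, 1 pericyte and smooth muscle marker rose and 2 fell at the low dose, and 2 rose and 1 fell at the high dose. Of the endothelial markers 2 rose and 1 fell at the low dose then, and 5 of the 10 rose at the high dose. Of all tested genes, 61.5% and 61.3% passed in these fits. Skeletal muscle markers summed to 52.6 to 124 FPKM with vehicle, 193 to 370 at the low dose and 90.6 to 1197 at the high dose, and 4 of 9 rose at each dose. The count was 9 of 9 without the libraries between the groups, and 2 and 1 with limma-voom. Of 10 macrophage markers 5 rose at the low dose (8 without those libraries), and 4 rose and 2 fell at the high dose. T cell markers summed to 14.9 to 17.8 FPKM with vehicle, 34.5 to 57.1 at the low dose and 6.50 to 21.9 at the high dose. Of 7 tested, 6 rose at the low dose, and 1 rose and 1 fell at the high dose. Between the doses 0 of the 7 passed, but all 7 had an unadjusted limma p under 0.05, as did 13.6% of all tested genes. Without the libraries between the groups 5 fell from the low to the high dose, where 3.40% of all tested genes passed. Whether any of these moved the family was not tested.

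As a check of the labelled lung carcinoma, the lung lineage factor Nkx2-1 was listed at 0 in the vehicle and low-dose samples, and Epcam was at most 0.149 FPKM in any sample. The simple epithelial keratin Krt8 had 2.76 ± 1.24 FPKM with vehicle and 85.6 ± 24.1 and 115 ± 11.6 with digoxin, and its partner Krt18 had 55.7 ± 10.9, 6.46 ± 8.99 and 3.65 ± 4.50 (SD, n = 3). The lung alveolar markers summed to at most 6.85 FPKM in any sample, most of it from Napsa. The tumours are called LLC by their label, since these markers do not identify a lung origin.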

How the data were processed

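The authors deposited FPKM values of 35321 genes in 9 poly(A)-selected libraries, sequenced as 150 bp pairs per the labels' protocols. Reads were handled with fastp 0.22.0 and HISAT2 2.2.1, and the build was GRCh38, per the submitters' processing notes. GRCh38 is human, but the symbols are mouse ones, and the fitted gene lengths given below match a mouse annotation, GENCODE M21. For the read counter, nothing is given in the sources used here. Every column matched 1 sample, and 0 columns were of other samples.

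Values were analysed as log2(FPKM + 1). The 13687 genes that reached 1 FPKM in 3 or more of the 9 samples were fitted with limma 3.58.1 in R 4.3.3, with 1 mean per group, a mean-variance trend, 6 residual and 2.71 prior degrees of freedom, two-sided moderated tests and p-values adjusted over the 13687 genes by Benjamini-Hochberg, with a threshold of 0.05. The fit was tested on simulated data with known changes: larger changes were recovered more fully than smaller ones, and in 1 of 3 simulated comparisons false calls exceeded the rate set by the threshold. The low dose is 0.1 mg/kg.

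Library depths were recovered from the spacing of FPKM values, which came out as whole reads (within 0.03) for 99.96% of tested genes. The fitted gene lengths equalled GENCODE M21 exon lengths for the 5 members and for 95.6% of 13027 tested genes with an annotation. The recovered reads served as an alternative only, and for the reads behind Lox.

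Besides the members, genes named were 14 fixed by name, the 3 nearest profiles of each called member and up to 3 genes of each list with the smallest p at the high dose (1 mg/kg). Others named, mainly where a list's count was 5 or fewer, in the check of labels and as markers, were chosen after their values were seen. The members and lists were chosen with earlier results of these data known. Alternatives covered pseudocount, filter, scaling, trend, fit, replicate block and leaving out each sample.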

Additional observations from a re-analysis of the deposited data

How the results depend on the processing

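Loxl1, Loxl2 and Loxl4 kept their direction and call against vehicle at both doses under the 22 alternatives run for single genes. On log2(FPKM + 1) in the main fit, Loxl4 changed by less than 2-fold, with log2 fold changes of −0.92 and −0.84. Over the alternatives these reached −1.14 at the low dose and −1.02 at the high dose. Lox at the low dose passed under 8 of its 21 alternatives, with TPM (1.59), a pseudocount of 0.01 (2.16), a fit of 2 groups and limma-voom (2.18) among them. Members called ranged from 3 to 5 at the low dose and 3 to 4 at the high dose when 1 sample was left out. Requiring at least 2-fold left 2 members at the high dose (1 higher, 1 lower). Genes called ranged from 3414 to 7074 at the low dose and from 4129 to 7373 at the high dose with 1 sample left out, and requiring 2-fold left 1222 and 1369. A mean of at least 5 FPKM gave 4159 at the high dose, from fewer genes tested. Between the doses the 2 calls became 0 with a pseudocount of 0.1 or 0.01, with a fit of 2 groups and with the replicate block, 10 with no filter, 1 with a mean of at least 5 FPKM, equal medians, no trend or 2-fold, and 0 to 133 with 1 sample left out. With 1 sample left out, the contrast of the doses ranged from −0.94 to 0.00725 for Lox (above 0 without high-dose sample 2), from −0.51 to 0.0224 for Loxl2 (without low-dose sample 1) and from −0.39 to 0.22 for Loxl3 (without high-dose sample 1), and the cause was not tested. Leaving out both libraries between the groups and limma-voom were chosen after seeing the data. Without both libraries 8424 and 8392 genes passed against vehicle, 465 genes and 1 member (Lox) between the doses, and Loxl3 turned to 0.13. Whether the replicate numbers pair the samples is not said by the labels, and correlations of deviations from the group means did not settle it. Same-numbered samples had correlations of −0.44 to 0.28, with 3 of 9 over 0.1. Between the low dose and vehicle, same-numbered samples had 0.19, 0.13 and 0.09, and differently numbered ones −0.14 to 0.04. Between the doses, differently numbered samples reached 0.52. The replicate block gave 4967 and 5541 genes and 4 members at each dose. Depth limits Lox with vehicle most, at 102 to 153 reads.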
